A study of Saccharomyces cerevisiae and Saccharomyces paradoxus and Saccharomyces cerevisiae x Saccharomyces paradoxus with 12 samples.

Results

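Intron genes outside the ribosomal proteins were taken from the deposited coordinate table of Saccharomyces cerevisiae as genes whose coding sequence was written as 2 or more blocks, that were present in the count table and whose names do not begin with RPL, RPS or RPP. They numbered 136 of the 5226 genes of the count table, beside 5015 genes of 1 block and 75 intron-bearing ribosomal protein genes. No measured value entered this choice. Of the 136, 134 passed the filter on low counts, and the other two, the meiotic genes REC114 and SAE3, had 9 counts or fewer in every column and were not tested.

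Most genes of budding yeast have no intron, and many of those that do encode abundant ribosomal proteins. The remaining intron genes serve vesicle traffic, the actin and tubulin skeleton, ubiquitin transfer, RNA processing and meiosis. The spliceosome removes nearly all of these introns. Exceptions to constant splicing are well known: the intron of HAC1, which encodes the transcription factor of the unfolded protein response, is removed by Ire1 and tRNA ligase, several meiotic introns need the splicing factor Mer1, and the proteins of YRA1 and DBP2 limit their own mRNAs through their long introns.

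The study set mRNA abundance (RNA-seq) and ribosome occupancy (Ribo-seq, sequencing of mRNA pieces protected by ribosomes) of 2 yeast species against those of their F1 hybrid. The diploid strains GSY83 (S. cerevisiae), GSY82 (S. paradoxus) and GSY88 (the hybrid) each gave 2 libraries per assay, 12 libraries in all. All cultures grew in YEP+D at 30C and had cycloheximide, which halts elongating ribosomes, added before polysome extracts were made. Each strain is a single line, and nothing in the sources used here says that libraries of one group came from separate cultures, so p-values measure the spread between these libraries only. Each hybrid library was counted once per allele, which gave 16 columns with 6116133 to 8910405 counts each. The hybrid RNA-seq libraries differed most between replicates, with a median absolute difference over the intron genes of 0.40 on the log2 scale for either allele, against 0.09 in S. cerevisiae RNA-seq and 0.26 in S. paradoxus RNA-seq.

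The introns were short, few per gene and close to the start of the coding sequence. In S. cerevisiae 129 genes had 2 blocks and 7 had 3: TAD3 (a tRNA deaminase subunit), HMRA1 (the a1 repressor copy at the silent locus HMR), VMA9 (a vacuolar ATPase subunit), SUS1 (a subunit of SAGA and of the mRNA export complex TREX-2), EFM5, DYN2 (dynein light chain) and YOS1 (endoplasmic reticulum to Golgi traffic). The first block of the 129 genes had a median of 32 bases and was under 50 bases in 83 of them. The median coding length was 735 bases, against 1272 in genes of 1 block and 417 in ribosomal protein intron genes. Among the 124 genes with 2 blocks in both species, the intron had a median length of 96.5 bases in the S. cerevisiae table and 96 in the other. The intron lengths of the species were equal in 30 genes and within 10 bases in 112, with the longer intron in S. cerevisiae in 46 genes and in S. paradoxus in 48. The longest introns of these 124 were DBP2 with 1002 bases in each species, YRA1 with 766 and 765, MPT5 with 640 and 654, NOG2 with 532 and 511, and GLC7 with 525 and 521. GCR1 had a 751-base intron in the S. cerevisiae table and none in the other.

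**Figure D1:**
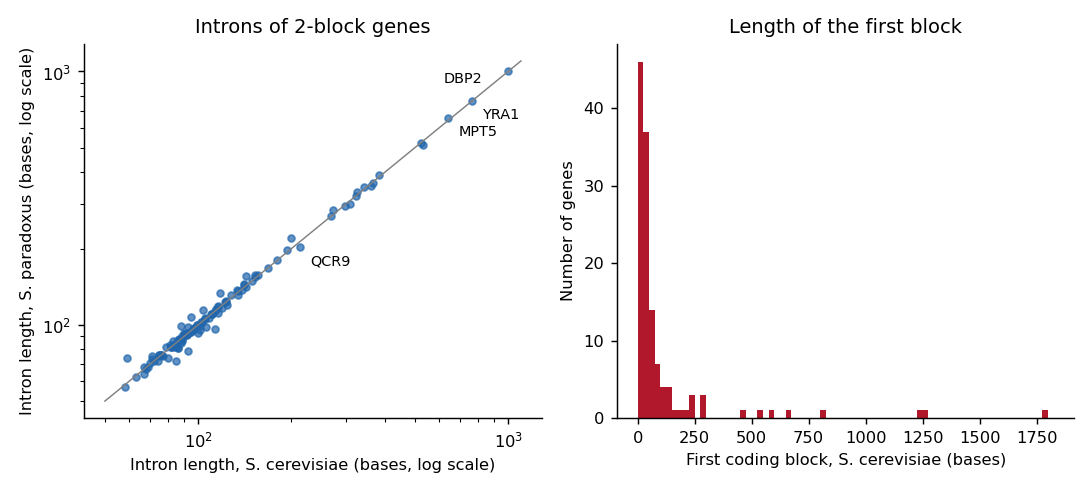
Left, intron length in bases in S. cerevisiae (x axis) and S. paradoxus (y axis), both on log scales, for the 124 genes with 2 blocks in both species, 1 point per gene, with the line of equal length. Right, number of genes by length of the first coding block in S. cerevisiae for the 129 genes of 2 blocks. Points lie along the line from 58 to 1002 bases, and 83 first blocks are under 50 bases.

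In 13 genes the annotated structure of the species differed by another number of blocks or by over 10% of the coding length. Coding length was equal in 86 of the 136, so counts of other genes may also come from stretches of slightly unlike length. GCR1 (activator of glycolytic genes), HAC1, MND1, REC114 and YKR005C had a single block in the S. paradoxus table. HAC1, for example, had a coding length of 717 bases without its 252-base intron in S. cerevisiae and 927 bases with it in S. paradoxus. HMRA1, VMA9 and EFM5 had 3 blocks against 2. Of the introns, 4 held a small nucleolar RNA gene in the RefSeq R64 annotation: SNR24 in ASC1, SNR18 in EFB1, SNR191 in NOG2 and SNR38 in TEF4. Coding blocks of TAD3, VPS75 and TUB3 overlapped NKP2, CWC25 and the antisense RNA YNCM0001W respectively. The coding overlaps are short, with bases 765266 to 765269 for TAD3, 186346 to 186349 for VPS75 and the 25-base first block for TUB3. No source here says whether reads were counted by strand, so counts over these stretches are uncertain, and their effect was not tested. Counts of the near-identical pairs TUB1 and TUB3, and UBC4 and UBC5, and of the mating-type copies are uncertain as well.

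Per length, the median intron gene had a higher level than the median gene of 1 block. The group's median RNA-seq and Ribo-seq level lay between 76.9 and 104 CPM (a gene's count scaled to the TMM-adjusted total of its column) per kilobase of coding sequence in the 16 columns, against 41.5 to 52.2 in genes of 1 block. In S. cerevisiae mRNA, 58 of the 136 fell in the upper quartile of all genes by this measure and 17 in the lower quartile. ASC1 (a ribosome-bound scaffold protein), EFB1 and TEF4 (subunits of elongation factor 1B) and ACT1 (actin) held the top 4 places among them in both parents. REC114, SAE3, MND1, DMC1, OSW2, LDS2, REC102 and YKR005C, most of them meiosis or spore genes, were lowest in S. cerevisiae. The intron genes together took 2.64 to 2.99% of the counts of a column. By coding length, their median S. cerevisiae mRNA densities were 122 up to 500 bases, 90.4 to 1000, 90.8 to 2000 and 31.2 above. Genes of 1 block had 90.2, 76.8, 55.5 and 26.5. In S. cerevisiae Ribo-seq the intron genes were higher up to 2000 bases, with 25.3 against 26.8 above. Without division by length, their median CPM was below that of 1-block genes in every RNA-seq column and above it in every Ribo-seq column.

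Translation efficiency, the log2 ratio of Ribo-seq to RNA-seq CPM, was positive for the typical intron gene and negative for the typical gene of 1 block. Its median over the 134 genes was 0.26 in S. cerevisiae, 0.10 in S. paradoxus, 0.13 for the S. cerevisiae allele and 0.17 for the S. paradoxus allele of the hybrid, against -0.07, -0.07, -0.08 and -0.09 in genes of 1 block. In S. cerevisiae 46 were called higher in Ribo-seq than in RNA-seq and 23 lower at an adjusted p of 0.05 (quasi-likelihood test of edgeR, adjusted over 5158 genes by Benjamini-Hochberg), against 25.5% and 29.3% of all genes tested, or 54.7% in either direction. In S. paradoxus 37 were higher and 20 lower, against 17.7% and 23.2% (40.9% together). For the S. cerevisiae allele of the hybrid 35 were higher and 20 lower, against 21.0% and 27.6% (48.6% together). For the S. paradoxus allele 38 were higher and 23 lower, against 21.0% and 28.5% (49.5% together). Without hybrid Ribo-seq replicate 2 the hybrid counts fell to 36 and 32, and without replicate 1 that of the S. paradoxus allele fell to 38.

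Short coding sequences had the higher efficiencies in both kinds of gene. Among coding sequences of up to 500 bases the S. cerevisiae median was 0.67 in 42 intron genes and 0.58 in 509 genes of 1 block. From 500 to 1000 bases it was 0.09 in 52 intron genes and -0.0037 in genes of 1 block, and from 1000 to 2000 bases it was -0.16 in 30, against -0.35 in genes of 1 block. Over 2000 bases it was 0.54 in only 10 intron genes, against 0.058 in genes of 1 block, while in S. paradoxus these medians were 0.06 and -0.09. Outside S. cerevisiae the intron genes were not higher in every range. From 500 to 1000 bases the S. paradoxus medians were -0.08 in intron genes and 0.04 in genes of 1 block. The S. cerevisiae allele had -0.36 against -0.33 from 1000 to 2000 bases, and the S. paradoxus allele 0.52 against 0.55 up to 500. In the remaining ranges the intron genes were higher. Once the dependence on coding length was removed from each column, the medians of the intron genes became -0.06, -0.05, 0.00 and -0.07, beside -0.06, -0.05, -0.05 and -0.08 in genes of 1 block. In that setting 25 intron genes were called higher and 27 lower in S. cerevisiae. The shares of all genes in that setting are not given here.

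**Figure D2:**
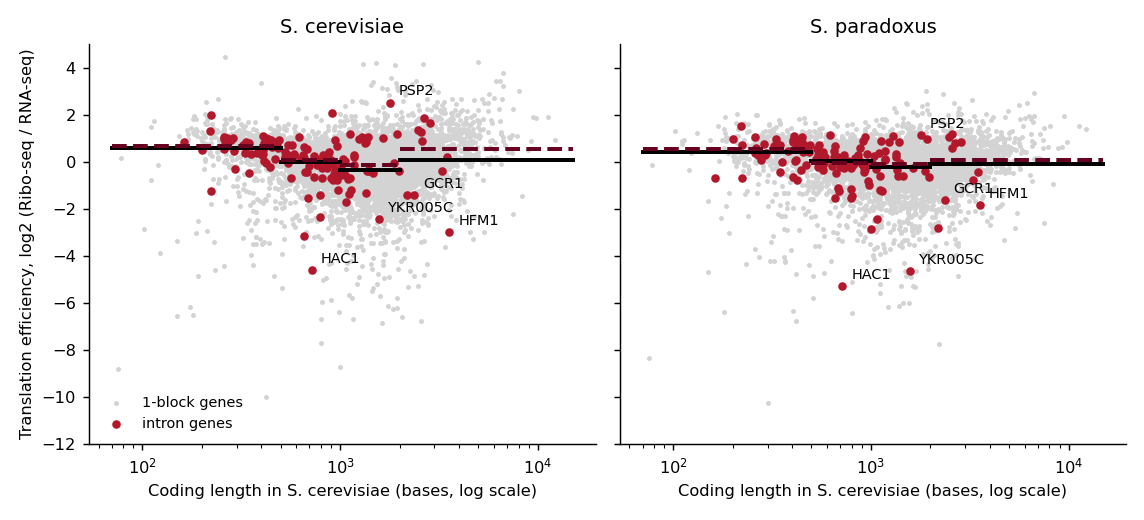
Translation efficiency (y axis, log2 of Ribo-seq over RNA-seq) against coding length (x axis, bases, log scale) in S. cerevisiae (left) and S. paradoxus (right), with the 134 intron genes in red and genes of 1 block in grey. Solid and dashed bars are the medians of genes of 1 block and of intron genes in 4 length ranges. The bars lie close together up to 1000 bases, and HAC1 lies far below both.

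The median gene with a long intron stood high in level and efficiency within the group. The 17 tested genes with over 250 bases of intron in S. cerevisiae, which are also longer (median coding length 1338 against 685.5 bases), had a median translation efficiency of 0.89 there and 0.54 in S. paradoxus. The other 110 tested genes of 2 blocks, with introns of up to 250 bases, had 0.14 and 0.05. Efficiency in S. cerevisiae was above 0 in 13 of the 17 and in 65 of the 110. Of the 17, HAC1 (-4.60), GCR1 (-1.43), NOG2 (-0.46) and HRB1 (-0.40) lay below 0. Median mRNA density was 145 CPM per kilobase for long introns and 89.7 for short ones in S. cerevisiae. These are descriptions of gene sets that share libraries, and they carry no test.

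HAC1 (chromosome VI, 75179 to 76147, plus strand, sacCer3) had abundant mRNA and little ribosome occupancy for its mRNA in every strain. In cells without endoplasmic reticulum stress its unspliced mRNA is known to be held back from translation by its intron. RNA-seq gave 409 and 402 CPM in the S. cerevisiae libraries, 1016 and 489 in S. paradoxus, 964 and 1689 for the S. cerevisiae allele and 623 and 1236 for the S. paradoxus allele of the hybrid. Ribo-seq gave 17.6 and 15.7, 19.7 and 18.5, 18.0 and 23.6, and 9.72 and 17.0 in the same order. Every Ribo-seq value was far below every RNA-seq value, with no overlap. Translation efficiency was -4.60 (SE 0.45, adjusted p = 4.1e-06) in S. cerevisiae, -5.30 (SE 0.46, adjusted p = 5.8e-06) in S. paradoxus, -5.99 and -6.11 (adjusted p = 1.6e-06 for both) for the hybrid alleles, the 41st, 15th, 18th and 10th lowest of 5158 genes. It stayed called without any 1 library and in every other setting. The mRNA ratio of the parents, -0.89 (SE 0.38, adjusted p = 0.071), was not called, and the S. paradoxus counts of HAC1 cover the intron as well.

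Among the intron genes, 14 were called lower in Ribo-seq than in RNA-seq in all 4 settings of strain and allele (10.4%, against 14.9% of genes of 1 block, shares not matched for coding length). Beside HAC1 they were GCR1, KIN28 (the kinase of transcription factor TFIIH), HRB1 (an mRNA export factor), MCM21 (a kinetochore protein), TAD3, ECM9, TDA5, YCL002C, the meiotic genes HFM1 and REC102, the spore wall gene OSW2, LDS2 and the uncharacterised YKR005C. GCR1, which has a 751-base intron and a very short first exon, had RNA-seq values of 79.1 and 69.8 in S. cerevisiae and 60.4 and 78.2 in S. paradoxus against Ribo-seq values of 29.9 and 25.1, and 18.1 and 26.8. Its efficiency ranged from -1.63 (S. paradoxus, SE 0.22, adjusted p = 0.00011) to -1.23 (S. cerevisiae allele, SE 0.21, adjusted p = 0.0005). HRB1 and KIN28 held less well. HRB1, at -0.40 in S. cerevisiae, lost its call there without any of 8 libraries (adjusted p 0.0521 to 0.21) and at -0.39 for the S. paradoxus allele without any of 9 (0.0622 to 0.213), and KIN28, at -0.44 in S. paradoxus, lost it without any of 9 (0.0552 to 0.269).

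At the other end, 23 intron genes were called higher in Ribo-seq in all 4 settings (17.2%, against 10.5% of genes of 1 block). These shares were not matched for coding length, whose median was 735 bases against 1272 in genes of 1 block. With the length trend removed, HNT1, LSM7, OST5, UBC13, YDL012C and YPR170W-B of the 23 fell below 0 in at least 1 setting and were not called there. They included PSP2 (an RNA-binding protein), SEC14 (a phosphatidylinositol transfer protein of the Golgi), SEC27 (a coat subunit of Golgi vesicles), APE2 (an aminopeptidase), MPT5 (an mRNA-binding protein of the PUF family), EFB1, COF1 (cofilin), RIM1 (which binds mitochondrial single-stranded DNA), STO1 (the large cap-binding subunit), GLC7 (a protein phosphatase catalytic subunit), PMI40 (an enzyme of mannose metabolism), and the ubiquitin and SUMO conjugating enzymes UBC4, UBC13 and UBC9. PSP2 had the highest efficiency of the intron genes in S. cerevisiae. RNA-seq gave 31.6 and 25.9 CPM and Ribo-seq 168 and 161, an efficiency of 2.51 (SE 0.20, adjusted p = 9.8e-07). It was 1.14 in S. paradoxus, 1.72 for the S. cerevisiae allele and 1.64 for the S. paradoxus allele. The efficiencies of GLC7, 0.89 to 1.25, were each lost without at least 1 library of the strain concerned (adjusted p up to 0.145).

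**Figure D3:**
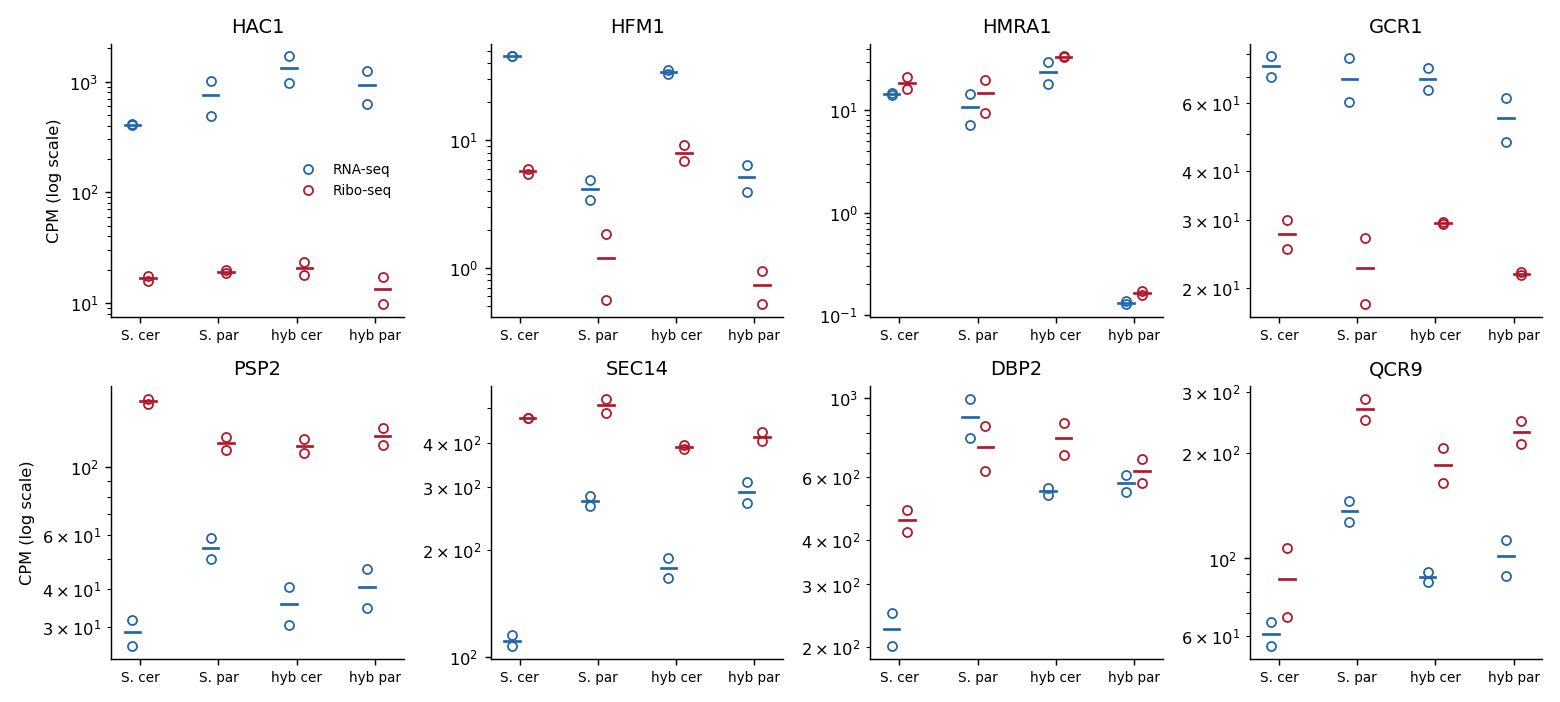
Levels in CPM (y axis, log scale) of 8 intron genes in S. cerevisiae, S. paradoxus and the S. cerevisiae and S. paradoxus alleles of the hybrid (x axis). Circles are single libraries and bars the means of 2, with RNA-seq in blue and Ribo-seq in red. HAC1, HFM1 and GCR1 lie lower in Ribo-seq and PSP2 and SEC14 higher, and the S. paradoxus allele of HMRA1 in the hybrid has 1 count per library.

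Transcripts of meiotic intron genes were detected in these cultures, and HFM1, REC102 and MND1 had more mRNA in S. cerevisiae. Of the 16 listed genes 6 were analysed here, and of the 4 tested 3 had more mRNA in S. cerevisiae and none had less (median 1.66, against -0.0032 over all genes, of which 21.9% were called higher and 21.6% lower). In occupancy 2 of the 4 were higher and none lower, against 18.0% and 15.0% of all genes. REC114 and SAE3, which were not tested, had RNA-seq counts of 4 and 8 against 1 and 4, and of 1 and 2 against 7 and 1. HFM1, a meiotic DNA helicase whose splicing needs Mer1 (chromosome VII, 27921 to 31636, minus strand), had RNA-seq values of 45.4 and 45.4 in S. cerevisiae and 3.43 and 4.89 in S. paradoxus, groups that lie far apart. The difference was 3.44 on the log2 scale (SE 0.34, adjusted p = 1.1e-05), the largest among the intron genes. In the hybrid the S. cerevisiae allele gave 35.3 and 32.9 and the S. paradoxus allele 3.96 and 6.44, an allelic difference of 2.71 (SE 0.33, adjusted p = 0.00023). Ribosome occupancy differed the same way, by 2.31 between the parents (adjusted p = 0.0018) and 3.40 between the alleles (adjusted p = 0.00043). Occupancy of HFM1 was far below its mRNA, with an efficiency of -2.99 in S. cerevisiae, -1.86 in S. paradoxus, -2.09 and -2.78 for the alleles. The S. paradoxus value rested on 4 and 10 Ribo-seq counts and was not called without S. paradoxus Ribo-seq replicate 1 (-1.17, adjusted p = 0.0904).

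REC102, needed for meiotic double-strand breaks, had RNA-seq values of 5.63 and 5.43 in S. cerevisiae and 2.16 and 1.16 in S. paradoxus, a difference of 1.73 (SE 0.35, adjusted p = 0.0016). The allelic difference was 2.09 (SE 0.37, adjusted p = 0.0022), with 39 and 52 counts against 13 and 9. In hybrid Ribo-seq the alleles had 9 and 10 counts against 1 and 1, a ratio of 9.49 (95% exact interval 2.29 to 84.0, counting error only). That allelic occupancy call was lost without either hybrid Ribo-seq library (adjusted p up to 0.216). MND1, a meiotic strand-exchange protein, differed by 1.58 (adjusted p = 0.03) on 24 and 20 against 6 and 6 counts, and lost the call without any of the 4 parental RNA-seq libraries (0.0696 to 0.115). DMC1, the meiotic recombinase, was not called in parental mRNA (0.35, adjusted p = 0.52) and had 12 and 15 against 2 and 2 Ribo-seq counts (2.67, adjusted p = 0.0073), a call lost without the second S. cerevisiae Ribo-seq library (0.0586) and without the first of S. paradoxus (0.0714). Its allelic mRNA call of -1.64 (adjusted p = 0.049) was lost in 16 of 20 other settings (up to 0.175).

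YKR005C had low counts as well. Its Ribo-seq counts were 10 and 11 in S. cerevisiae and 1 and 1 in S. paradoxus, a ratio of 10.5 (95% exact interval 2.56 to 92.3), and 8 and 18 against 1 and 1 for the hybrid alleles, a ratio of 13.0 (3.25 to 113). Its RNA-seq counts in the parents were 87 and 93 against 20 and 53 (1.04, adjusted p = 0.038, lost without any of 5 libraries, 0.0515 to 0.267), and those of its alleles 40 and 45 against 49 and 52 (-0.21, adjusted p = 0.78). The fitted occupancy differences of 3.23 (adjusted p = 0.0079) and 3.59 (0.0099) depend on the counts of 1, and they were lost without the first S. paradoxus Ribo-seq library (0.0726) and, in turn, either hybrid Ribo-seq library (up to 0.368). The S. paradoxus gene was annotated as 1 block of 1320 bases against 1578 bases.

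Among 11 meiosis marker genes without introns, 6 were higher in S. cerevisiae mRNA and 1 lower (SPS4, -0.84), and in occupancy 3 were higher and 2 lower. Of all genes 21.9% and 21.6% were called higher and lower in mRNA, and 18.0% and 15.0% in occupancy. IME1, the master inducer of meiosis, was higher in mRNA by 2.29 (adjusted p = 0.00011) and the meiotic kinase gene IME2 by 2.28 (adjusted p = 0.00065). The summed RNA-seq level of the 11 was 169 and 177 CPM in S. cerevisiae and 86.2 and 107 in S. paradoxus, and the summed Ribo-seq level was 40.0 and 40.8 against 39.6 and 38.8. In the hybrid the summed RNA-seq level was 131 and 117 for the S. cerevisiae allele and 102 and 90.8 for the S. paradoxus allele. In S. cerevisiae 7 of the 11 were called lower in Ribo-seq than in RNA-seq and none higher (against 29.3% and 25.5% of all genes), with IME2 at -6.21, RED1 at -5.28 and SMK1 at -3.97. For 10 markers of haploid cells and mating, the summed RNA-seq level was 153 and 161 in S. cerevisiae and 98.9 and 88.1 in S. paradoxus. In the hybrid it was 101 and 123 for the S. cerevisiae allele and 117 and 142 for the S. paradoxus allele. The part of these marker levels in the values of the meiotic intron genes was not tested. In such bulk libraries fewer cells with a transcript and less transcript per cell cannot be told apart.

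Between the parents, mRNA of 49 intron genes differed, 29 higher and 20 lower in S. cerevisiae (36.6%, against 43.5% of all genes tested, and against 21.9% and 21.6% by direction). Of the 134 tested, 19 were called with a difference of at least 2-fold, and the median was 0.05, against 0.01 in genes of 1 block. The count fell to 27 and 26 without S. cerevisiae RNA-seq replicates 1 and 2, and to 30 without S. paradoxus RNA-seq replicate 1. DBP2, a DEAD-box RNA helicase, had the lowest ratio. It had 250 and 201 CPM in S. cerevisiae and 998 and 774 in S. paradoxus, without overlap, a difference of -1.97 (SE 0.21, adjusted p = 1.5e-05). PAL2, an endocytosis protein, went the other way, with 51.0 and 54.0 against 11.04 and 10.8 (2.26, SE 0.31, adjusted p = 0.00012). YSC84, an actin-binding protein of endocytic patches, had 103 and 104 against 32.4 and 33.4 (1.65, adjusted p = 0.0029), and OM14, of the outer mitochondrial membrane, 61.0 and 72.9 against 19.0 and 24.0 (1.63, adjusted p = 0.0021). SEC14 had 115 and 107 against 283 and 266 (-1.31, SE 0.14, adjusted p = 2.5e-05). Further differences past 2-fold included SFT1, a Golgi SNARE (1.36, adjusted p = 0.011), MPT5 (-1.18, adjusted p = 0.00063), QCR9, a subunit of respiratory complex III (-1.16, adjusted p = 0.001), and MMS2, partner of UBC13 in ubiquitin chain formation (1.14, adjusted p = 0.00038). Of the calls named here, SFT1 was lost without S. paradoxus RNA-seq replicate 2 (0.0934), while the others held in every setting tried.

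In ribosome occupancy 40 intron genes differed between the parents, 30 higher and 10 lower in S. cerevisiae (29.9%, against 33.0% of all genes, and against 18.0% and 15.0% by direction). The median over the 134 was 0.18, against 0.03 in genes of 1 block, and became 0.06 with the length trend removed, the same value as in genes of 1 block. The count fell to 24 without the second S. cerevisiae Ribo-seq library and 26 without the first of S. paradoxus, and rose to 62 and 64 without hybrid RNA-seq replicates 1 and 2. A fit on the parental columns alone called 62, and the shares of all genes above are not from that fit. Of the 49 genes called in mRNA, 44 had the same sign in occupancy (89.8%, against 89.6% of all genes so called). In occupancy 29 of the 49 were called the same way, against 1174 of 2245 over all genes so called. QCR9 had 67.9 and 107 in S. cerevisiae and 249 and 286 in S. paradoxus, the lowest difference at -1.62 (SE 0.22, adjusted p = 0.00013). MRA1 followed at -1.31 (adjusted p = 0.0027), with 49.5 and 60.4 against 129 and 142. MMS2 (1.14, adjusted p = 0.00044), TMH18, a mitochondrial membrane protein (1.203, adjusted p = 0.00024), and APE2 (0.97, adjusted p = 0.00073) were higher in S. cerevisiae. The calls of QCR9, MRA1, MMS2, TMH18 and APE2 held in every setting tried.

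The parental difference in translation efficiency was called in 4 intron genes, all with the higher efficiency in S. cerevisiae (3.47% of all genes were called, 2.02% higher and 1.45% lower). They were PSP2 (1.37, SE 0.27, adjusted p = 0.0145), DBP2 (1.29, SE 0.28, adjusted p = 0.0272), SEC14 (1.19, SE 0.20, adjusted p = 0.0059) and SEC27 (1.05, SE 0.24, adjusted p = 0.0355). All of them were called lower in S. cerevisiae mRNA. The mRNA ratio is subtracted in the efficiency difference, so the mRNA and efficiency calls are not independent. In Ribo-seq SEC14 gave 471 and 471 in S. cerevisiae against 532 and 486 in S. paradoxus, and PSP2 168 and 161 against 126 and 113. SEC27 was higher in S. cerevisiae occupancy (917 and 817 against 679 and 540, 0.51, adjusted p = 0.0371, lost without any of 7 libraries, up to 0.249), and DBP2 was lower (487 and 421 against 837 and 624, -0.69, adjusted p = 0.0179, lost without the second Ribo-seq library of the former or the first of the latter, up to 0.177). The Ribo-seq values of SEC14 did not overlap, yet their difference of -0.11 was not called (adjusted p = 0.57). Each of the 4 calls was lost with some library left out. SEC14 was lost without S. cerevisiae RNA-seq replicate 2 alone (0.0592), PSP2 without any of 4 libraries (up to 0.12), DBP2 without any of 8 (up to 0.156) and SEC27 without any of 9 (up to 0.173). The count was 0 without the second S. cerevisiae RNA-seq library, 12 without the second hybrid RNA-seq library, and 7 with DESeq2 or a fit on the parental columns alone.

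Grouped by role, 16 members of the RNA processing and export list were analysed, and 6 had less mRNA in S. cerevisiae while none had more (median -0.47, against -0.0032 over all genes, of which 21.6% were called lower and 21.9% higher). The 6 were DBP2, MPT5, NOG2 (a GTPase of the large ribosomal subunit, -1.04, adjusted p = 0.0022), CGI121 (of the KEOPS complex, -0.91, adjusted p = 0.007), NMD2 (a nonsense-mediated decay factor, -0.83, adjusted p = 0.035) and YRA1 (an mRNA export adaptor, -0.46, adjusted p = 0.021). The list is loose. MPT5, NMD2 and NOG2 are not mRNA processing or export factors in the strict sense, as MPT5 represses mRNAs and NMD2 acts in decay. It also holds the transcription factor genes GCR1 and HAC1, and it lacks the mRNA export factor HRB1. YRA1 lost its call without any of 5 libraries (0.0535 to 0.133), NMD2 without any of 6 (0.0632 to 0.184), and CGI121 without S. cerevisiae RNA-seq replicate 2 (0.0613) or S. paradoxus RNA-seq replicate 1 (0.0654). In occupancy 5 of the 16 were lower and none higher (median -0.32, against 0.02 over all genes, of which 15.0% were called lower and 18.0% higher). The 4 hosts of small nucleolar RNA genes had a median of -0.48, with NOG2 and ASC1 lower (ASC1 -0.57, adjusted p = 0.01, lost without any of 3 libraries, up to 0.112). The list of 4 translation genes, which shares EFB1, ASC1 and TEF4 with the hosts, had ASC1 and NMD2 lower and a median of -0.48.

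Of 23 genes in the secretory pathway list, 6 had more mRNA in S. cerevisiae and 5 less (median 0.08), and in occupancy 9 had more and 1 less (median 0.25). The shares of all genes called higher and lower were 21.9% and 21.6% in mRNA and 18.0% and 15.0% in occupancy. SEC17, which disassembles SNARE complexes, had more mRNA (0.77, adjusted p = 0.0012) and occupancy (0.63, adjusted p = 0.0055), as did the vacuolar SNARE gene NYV1 (0.77 and 0.61) and PMI40 (0.67 and 0.64). The occupancy call of NYV1 was lost without the first Ribo-seq library of either parent (up to 0.101), and that of PMI40 without the first of S. cerevisiae or the second of S. paradoxus (up to 0.0808). Of the 5 with less mRNA, SEC14, SEC27 and YIP3 belong to the pathway, while PSP2 and VPS75 (a histone chaperone) act outside it, as does ERV1 of the same list, which was not called. In the ubiquitin and ubiquitin-like list 8 genes were analysed. They were 6 conjugating enzymes, NBL1 (of the chromosomal passenger complex) and SUS1, and the list does not hold MMS2. UBC5 (1.04, adjusted p = 0.005) and UBC8 (0.66, adjusted p = 0.017, lost without any of 3 libraries, up to 0.0863) had more mRNA in S. cerevisiae and none had less (against 21.9% and 21.6% of all genes). The median efficiency of the 8 in S. cerevisiae was 0.64, with 5 higher and 1 lower (against 25.5% and 29.3% of all genes).

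Of 11 genes in the actin and tubulin cytoskeleton list 2 had more mRNA in S. cerevisiae and none less (median 0.15, with 21.9% and 21.6% of all genes called higher and lower). The list holds MOB1, MOB2 and ARP9, a chromatin remodeler subunit, and not YSC84. ARP2, of the actin-nucleating Arp2/3 complex, had 0.46 (adjusted p = 0.021) and MOB1, a mitotic exit protein, 0.55 (adjusted p = 0.018), and both calls were lost with single libraries left out (ARP2 with any of 6, up to 0.0838, MOB1 with any of 3, up to 0.114). ACT1 differed by -0.14 (SE 0.18, adjusted p = 0.55) and COF1 by 0.15 (SE 0.25, adjusted p = 0.65). TUB3, the minor alpha-tubulin gene, had Ribo-seq values of 304 and 332 against 194 and 133 (0.96, SE 0.21, adjusted p = 0.0035), and its paralog TUB1 was not called (0.32, adjusted p = 0.23). In the hybrid the TUB3 alleles had 305 and 314 against 154 and 162 (0.97, adjusted p = 0.0098, or 2.6e-05 with the library as a block). Without either hybrid Ribo-seq library that allelic difference was not called (0.228 and 0.241). Of 5 genes of the mitochondria list QCR9 was lower and OM14 higher in mRNA. Of 6 genes of the signalling list, which holds the kinetochore gene MCM21, the phosphatase gene PTC7 was called higher (0.54, adjusted p = 0.018, lost without any of 3 libraries). The shares of all genes called higher and lower in mRNA were 21.9% and 21.6%. None of PHO85, CNB1, VMA9 and KEI1, listed as vacuolar ATPase and ion transport genes although PHO85 is a kinase and CNB1 the calcineurin regulatory subunit, was called in parental mRNA or occupancy.

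Of the 7 genes with 2 introns in S. cerevisiae, EFM5 alone was called in parental mRNA (-0.70, adjusted p = 0.029) and YOS1 alone in parental occupancy (1.00, adjusted p = 0.0058). EFM5 had 747 coding bases in the S. cerevisiae table and 582 in the other, and its call was lost without any of 5 libraries (0.0566 to 0.173). YOS1 had 258 coding bases against 345, and its call was lost without S. paradoxus Ribo-seq replicate 1 (0.0523). SUS1 differed by -0.75 in mRNA (SE 0.29, adjusted p = 0.051) and was not called. VMA9 had among the highest efficiencies, at 1.99 (adjusted p = 0.00021) in S. cerevisiae, 1.94 and 1.71 for the alleles, and 0.70 (adjusted p = 0.086) in S. paradoxus.

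In the hybrid both alleles share one set of regulators, so an allelic difference follows the gene copy and not the cell. The mRNA of 15 intron genes differed between alleles, 5 higher and 10 lower for the S. cerevisiae allele (11.2%, against 13.0% of all genes, and against 5.76% and 7.19% by direction). With the library as a block, which pairs the alleles of 1 library, 53 differed, 27 of them higher, and in a fit on the hybrid columns alone 4 differed. The shares of all genes in this paragraph are from the fit without a block, so they are no measure for counts from other fits. In occupancy 9 differed, 7 higher and 2 lower (against 8.74%, 4.09% and 4.65% of all genes), and 34 with the block, 16 of them higher, or 4 on the hybrid columns alone. Without either hybrid Ribo-seq library 2 differed in occupancy, and without either hybrid RNA-seq library 17. Allelic translation efficiency was called in none by edgeR (against 1.38% of all genes, 0.659% higher and 0.717% lower). At an unadjusted p under 0.05 in that test there were 8 of 134 (5.97%, against 9.64% of all genes). DESeq2 called 1, and the fit with the block called 4.

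HMRA1 (chromosome III, 293835 to 294321) had the largest allelic difference of the intron genes. The S. cerevisiae allele had 226 and 129 RNA-seq counts and 189 and 206 Ribo-seq counts, and the S. paradoxus allele had 1 in each library. The ratios of summed counts were 177 (95% exact interval 48.7 to 1470) in RNA-seq and 197 (54.2 to 1630) in Ribo-seq, for counting error only. The parents were close, with 142 and 148 against 113 and 62 RNA-seq counts (0.44, SE 0.37, adjusted p = 0.35). As 12 of the 16 columns hold no gene at 0, a count of 1 there may stand for none, and with counts of 1 set to 0 the calls stood. HMR holds the same a1 coding sequence as a mating-type locus of type a, and the copies cannot be told apart in these counts.

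The other allelic mRNA calls that held in every setting tried were HFM1, REC102 and ATG38, an autophagy gene, whose alleles had 6.51 and 5.95 against 20.2 and 15.2 CPM (-1.50, SE 0.26, adjusted p = 0.0021). The ATG38 coding length was 681 bases in the S. cerevisiae table and 774 in the other. SMD2, a core spliceosomal Sm protein, was at -1.11 (adjusted p = 0.0069), AIM11, named for altered inheritance of mitochondria, at -1.06 (adjusted p = 0.0079), MCM21 at -0.97 (adjusted p = 0.01), ERV1, an oxidase of the mitochondrial intermembrane space, at -0.80 (adjusted p = 0.0062) and SEC14 at -0.71 (adjusted p = 0.0056). These 5 were not called in a fit on the hybrid columns alone (0.0657 to 0.0877). In parental mRNA AIM11 was not called (-0.04, adjusted p = 0.91), with 21.1 and 20.9 against 24.0 and 19.2, and its alleles gave 16.03 and 21.8 against 33.8 and 44.8. Its allelic occupancy was -1.13 (adjusted p = 0.0074), lost without either hybrid Ribo-seq library (0.154 and 0.194).

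Of the 49 genes called in parental mRNA, 34 had the same sign between alleles (69.4%, against 76.1% of all genes so called). CPT1, HFM1, REC102, SEC14, VPS75, YDL012C and YML6 were called in both in the same direction, against 440 of 2245 over all genes so called. Over the 49, the median absolute difference was 0.78 between parents and 0.25 between alleles, against 0.999 and 0.348 over all genes so called. These genes were chosen by their parental ratio, which by itself favours a larger parental median. Parental and allelic ratios come from different libraries. The difference between the 2 ratios, parental less allelic, was called in 13 intron genes for mRNA, 10 higher and 3 lower (against 12.4% of all genes, and 6.90% and 5.51% by direction), or 39 with the block and 21 with DESeq2. It was called in 7 for occupancy, 4 higher and 3 lower (against 6.98%, 4.59% and 2.38%), or 25 with the block and 19 with DESeq2. Leaving out single libraries gave 3 (second S. cerevisiae RNA-seq library left out) to 25 (first hybrid RNA-seq library left out) for mRNA and 1 (second hybrid Ribo-seq library) to 24 (first hybrid RNA-seq library) for occupancy. DBP2 had 560 and 536 for the S. cerevisiae allele and 545 and 609 for the S. paradoxus allele, values between those of the parents, so its allelic ratio was -0.07 (SE 0.20, adjusted p = 0.86) and the difference of ratios -1.90 (SE 0.28, adjusted p = 0.0013). PAL2 likewise had 19.8 and 34.0 against 23.0 and 33.7 in the hybrid (difference of ratios 2.34, SE 0.42, adjusted p = 0.0045). HMRA1 (-6.88), DBP2 and PAL2 held in every setting tried.

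**Figure D4:**
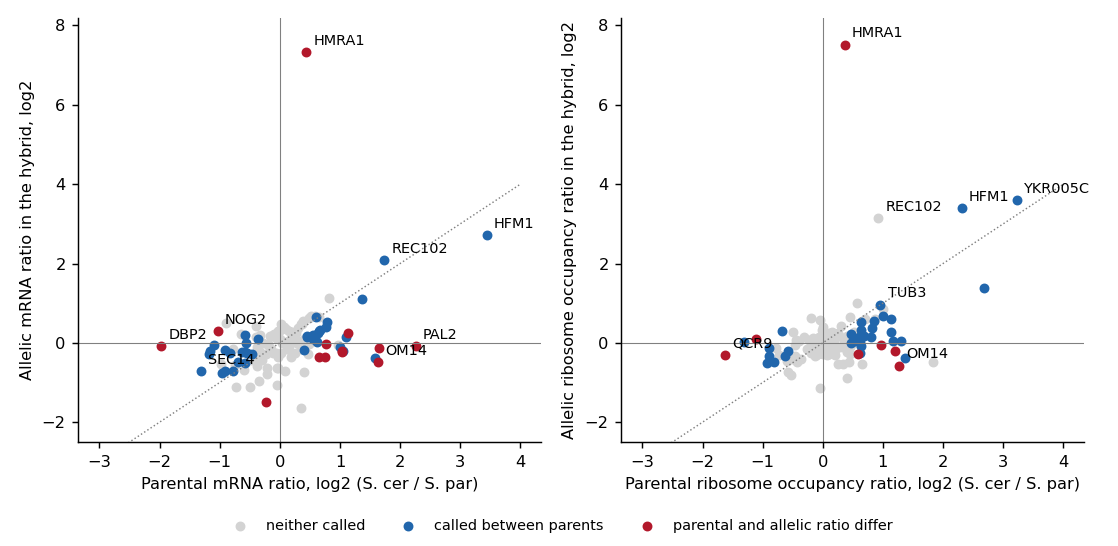
Allelic difference in the hybrid (y axis, log2) against the difference between the parents (x axis, log2), for mRNA (left) and ribosome occupancy (right), 1 point per intron gene (134). Red marks genes whose 2 ratios differed at adjusted p 0.05, blue other genes called between the parents, and the dotted line equal ratios. HFM1 and REC102 lie near the dotted line for mRNA, DBP2 and PAL2 lie near 0 on the y axis, and HMRA1 stands alone at 7.32 and 7.52.

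Of 81 analysed genes of the splicing machinery 80 were tested, of which 5 had more and 12 less mRNA in S. cerevisiae (median -0.06), and 3 and 10 more and less occupancy. Of all genes 21.9% and 21.6% were called higher and lower in mRNA, and 18.0% and 15.0% in occupancy. PRP8, the core protein of the spliceosome, was lower (-1.05, adjusted p = 0.00052), as were SNU13, a protein of the U4/U6.U5 particle (-0.96, adjusted p = 0.0003), and HSH49, of the U2 particle (-0.90, adjusted p = 0.0135, lost without any of 3 libraries, up to 0.123). PRP18, a second-step factor, was higher (1.18, adjusted p = 0.0038). CWC25 was also higher (1.01, adjusted p = 0.019, lost without any of 3 libraries). Its gene shares only bases 186346 to 186349 with VPS75, which was lower. The 6 splicing genes that carry an intron themselves, LSM2, LSM7, MUD1, SMD2, STO1 and YSF3, had parental mRNA differences from -0.49 to 0.38, none of them called. Among the splicing machinery genes the efficiency in S. cerevisiae was called higher in 17 and lower in 27, against 25.5% and 29.3% of all genes.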

How the data were processed

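The tables hold counts of reads per gene, deposited by the authors as 16 columns, and per the file headers the parental columns are marked Mix, a term not given a meaning in the material at hand. The submitters' processing notes name CASAVA 1.8, cutadapt 1.2.1, Bowtie 0.12.8, bedtools 2.17.0 and the build sacCer3, without saying which step each did. Coding blocks came from the deposited coordinate tables. Of the gene IDs, 5183 matched the RefSeq R64 names and 43 did not, and all 136 intron genes matched.

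From the counts, log2 ratios were fitted with edgeR 4.0.16 in R 4.3.3 (TMM scaling, quasi-likelihood test, 8 groups of columns, 8 residual degrees of freedom) on the 5158 genes that passed its filter at a minimum count of 10, with Benjamini-Hochberg adjustment and a threshold of 0.05. Every adjusted p in the text is from this fit unless another is named. Each share of all genes is from it too, and counts of calls under other settings carry no such share. The scripts were tested on simulated data. Intervals on ratios of counts are exact at 95% and cover counting error only.

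Both alleles of a hybrid library come from the same library, so they are paired by construction, and their replicate deviations correlated at 0.78 in RNA-seq and 0.28 in Ribo-seq. Alternatives were DESeq2 1.42.0, its size factors, no filter, the columns of a comparison alone, the replicate block, a length offset, a length trend removed, members of differing structure left out, and each library left out. Setting counts of 1 to 0 was added after seeing the data.

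Members, lists and tests were chosen with earlier results of these data known. Genes are named if they belong to a list, rank among the 10 largest called differences of a comparison, have 3 blocks, have regulated splicing (HAC1, YRA1, Mer1-dependent genes) or differ in blocks between species, and for splicing factors the 5 largest. Others named were chosen after their values were seen. AMA1, REC107 and SPO22 were not analysed here.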

Additional observations from a re-analysis of the deposited data

Results flagged for a closer look

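For 13 intron genes the mRNA difference between the parents differed from that between the alleles of the hybrid, by a test of the difference itself. They were 9.7% of the intron genes tested, against 12.4% of all genes. The difference of the log2 ratios was -6.88 for HMRA1, -1.90 for DBP2 and -1.32 for NOG2. It was 2.34 for PAL2, 2.12 for OM14, 1.79 for YSC84, 1.27 for ATG38, 1.26 for TMH18, 1.25 for UBC5, 1.10 for MRX20, 1.02 for UBC8, 0.89 for MMS2 and 0.80 for NYV1. HMRA1, DBP2 and PAL2 held in every setting tried, and the other 10 did not.

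For ribosome occupancy the same test called 7 genes (5.22%, against 6.98% of all genes). The differences were -7.15 for HMRA1, -1.31 for QCR9 and -1.22 for MPT5, and 1.84 for OM14, 1.41 for TMH18, 1.02 for APE2 and 0.87 for TFC3, a subunit of the transcription factor TFIIIC. HMRA1 alone held in every setting tried. In TMH18, OM14 and HMRA1 both mRNA and occupancy were called.

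Translation efficiency differed between the parents in 4 genes (2.99%, against 3.47% of all genes), by 1.37 for PSP2, 1.29 for DBP2, 1.19 for SEC14 and 1.05 for SEC27. Each of these was lost without at least 1 library.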

How the results depend on the processing

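Of the single-gene values under alternatives, 7151 kept direction and side of the threshold, 871 lost it, 14 gained it and 18 reversed. The 18 reversals all came with the length trend removed, and the cause was not tested: parental occupancy of OST5 -0.26; efficiency in S. cerevisiae of YPR170W-B -0.03, LSM2 -0.01, PCC1 -0.05, YOS1 -0.07, DYN2 -0.14, NCE101 -0.13, LSM7 -0.09, OST5 -0.33, GOT1 -0.05, YDL012C -0.26, UBC5 -0.04, SMD2 -0.31 and TMH18 -0.02; of the S. cerevisiae allele OST5 -0.25, YDL012C -0.24 and UBC13 -0.06; of the S. paradoxus allele HNT1 -0.14. That setting also gave medians of -0.06, -0.05, 0.00 and -0.07 for the 4 efficiencies, 0.06 for parental occupancy and 0.04 for its difference from the allelic ratio, 24 allelic mRNA calls and 1 allelic efficiency call. No label says that the number pairs other libraries, whose replicate differences correlated at -0.06 to 0.26. With the replicate block, parental occupancy had 62 calls (median 0.19), parental efficiency 10, allelic mRNA 53 (median -0.03), allelic occupancy 34, allelic efficiency 4 (median 0.02), and the differences of ratios 39 and 25. The block pairs alleles of 1 library, and every member called in a parental comparison was also called with it. A fit on own columns gave 62, 7, 4 (median -0.03) and 4 calls for parental occupancy, parental efficiency, allelic mRNA and allelic occupancy, and a median allelic efficiency of 0.02. DESeq2 gave 7 parental efficiency, 1 allelic efficiency, 21 and 19 difference-of-ratio calls. DESeq2 and RLE size factors gave medians of 0.15 (parental occupancy), -0.04 (allelic mRNA), 0.05 (allelic efficiency) and 0.33 (efficiency in S. cerevisiae). Without genes of differing structure the allelic medians were -0.04 for mRNA and 0.03 for efficiency, and counts of 1 set to 0 gave 1 allelic efficiency call. Leaving out each library gave 26 to 73 parental mRNA calls, 24 to 64 parental occupancy calls (median 0.13 to 0.25), 0 to 12 parental efficiency calls, 2 to 17 allelic occupancy calls (median -0.01 to 0.03), 0 to 1 allelic efficiency calls (median 0.00 to 0.07), 3 to 25 and 1 to 24 differences of ratios (medians -0.04 to 0.18 and 0.09 to 0.19), 36 to 75 and 32 to 83 hybrid efficiency calls (medians 0.13 to 0.28 and 0.07 to 0.32), a median efficiency in S. cerevisiae of 0.21 to 0.26 and a median allelic mRNA ratio of -0.06 to -0.03. With 2 libraries a group and the few Ribo-seq counts of the meiotic genes, differences that were not called are not shown to be absent.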
